A study of Mus musculus with 27 samples.

Results

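Cx3cr1, P2ry12, Csf1r, C1qa, C1qb, C1qc, Tyrobp, Ctss and Trem2 are genes used to recognise microglia, the resident macrophages of the brain. They were taken by Ensembl identifier, matched to these symbols with GENCODE mouse annotation, and make up 9 of the 37332 genes of the deposited count table and 9 of the 53379 genes of the deposited TPM table (a level scaled by transcript length and depth). They were looked up in all libraries of a mouse study of where polyadenylated RNA sits in the cell as stem cells become neurons. In the cytoplasm of cultured cortical neurons Tyrobp, the C1q chains, Trem2, Ctss and Csf1r all had reads in all 3 libraries, whereas P2ry12 stayed at 1 count per library and the counts listed for Cx3cr1 were mostly matched by other genes inside its span.

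Microglia enter the developing brain early and depend on the receptor CSF1R, which binds CSF1 and IL-34. CX3CR1 is the receptor for neuronal fractalkine and P2RY12 is a receptor for ADP that guides microglial processes. C1QA, C1QB and C1QC are the chains of C1q, the recognition component of the classical complement pathway. TYROBP, also called DAP12, is a membrane adaptor with an activation motif, TREM2 is a lipid-binding receptor that signals through it, and CTSS is the lysosomal protease cathepsin S. RNA bound to chromatin is enriched for transcripts still being made or processed, and cytoplasmic RNA is mostly mature mRNA.

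The mESC samples were the E14 mouse embryonic stem cell line, grown on gelatin with LIF. The mNPC samples were a neuronal progenitor line established in the submitters' laboratory, carrying the tag C2, grown in DMEM/F12 with B27 lacking vitamin A, GlutaMax and antibiotics, with EGF and FGF added daily at 10 ng/ml. The mCtx samples were primary cortical neurons kept for 5 days on poly-L-lysine, carrying the tag E15D5. Each was separated into chromatin-associated, soluble nucleoplasmic and cytoplasmic RNA, in 3 libraries labelled as biological replicates for each of the 9 groups, 27 libraries in all. RNA longer than 200 nt was selected with oligo-dT and sequenced as stranded paired reads. The stem cells and progenitors are each a single line, and the primary culture is the only one of the 3 cell types prepared from tissue. No label shows that libraries with the same number came from the same culture, so p-values measure the spread between these labelled replicates.

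Promoter windows of 300 bases, from 250 before to 50 after the RefSeq start on GRCm38.p6, were held for 6 of the 9 genes. They are shown for those members with a window that were called higher in mCtx than in both cell lines in every fraction. The motif searched was GAGGAA on either strand (TTCCTC on the other), the core of sites bound by PU.1, the myeloid transcription factor encoded by Spi1, and it is printed in capitals. The windows lie at chr4:136886151-136886450, minus strand (C1qb); chr4:136892865-136893164, minus strand (C1qc), chr3:95526536-95526835, plus strand (Ctss) and chr17:48346151-48346450, plus strand (Trem2).
C1qb: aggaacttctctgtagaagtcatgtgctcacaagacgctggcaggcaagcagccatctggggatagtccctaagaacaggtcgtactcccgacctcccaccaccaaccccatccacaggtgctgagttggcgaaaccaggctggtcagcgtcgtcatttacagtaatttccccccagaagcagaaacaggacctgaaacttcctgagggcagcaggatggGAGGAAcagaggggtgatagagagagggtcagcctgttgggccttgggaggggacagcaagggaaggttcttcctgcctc
C1qc: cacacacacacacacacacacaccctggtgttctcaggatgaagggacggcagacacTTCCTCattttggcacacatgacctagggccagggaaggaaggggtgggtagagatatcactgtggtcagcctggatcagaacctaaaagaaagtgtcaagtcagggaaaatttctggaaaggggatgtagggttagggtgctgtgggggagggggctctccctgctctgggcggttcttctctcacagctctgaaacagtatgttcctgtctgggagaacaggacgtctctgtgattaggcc
Ctss: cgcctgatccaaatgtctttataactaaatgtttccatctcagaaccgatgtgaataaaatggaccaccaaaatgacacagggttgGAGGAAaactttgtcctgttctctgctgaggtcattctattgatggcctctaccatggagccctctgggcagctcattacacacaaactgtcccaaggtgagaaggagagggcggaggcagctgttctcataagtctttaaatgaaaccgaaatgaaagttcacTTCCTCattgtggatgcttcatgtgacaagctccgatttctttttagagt
Trem2: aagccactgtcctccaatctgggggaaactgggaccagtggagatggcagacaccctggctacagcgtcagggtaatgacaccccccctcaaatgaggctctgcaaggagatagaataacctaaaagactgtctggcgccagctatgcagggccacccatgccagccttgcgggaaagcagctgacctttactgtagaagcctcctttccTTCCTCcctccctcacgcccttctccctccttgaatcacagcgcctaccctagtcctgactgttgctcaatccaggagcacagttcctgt

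The motif was found in 4 of the 6 windows, with 2 matches in Ctss and 1 each in C1qb, C1qc and Trem2, and in 28.3% of 32851 mouse promoter windows of the same length. The longer form GAGGAAGT, or ACTTCCTC on the other strand, was found in the C1qc and Ctss windows and in 3.2% of all windows. The letters GAGGAA do not occur in the windows of P2ry12 and Cx3cr1. The P2ry12 window, chr3:59262936-59263235, lies wholly outside the deposited span of that gene. Its last bases were not found in the annotated P2ry12 transcripts, so it may not be the promoter of the gene counted here. A match describes letters only.

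The genes lie at these mm10 positions in the deposited table: Csf1r (ENSMUSG00000024621) at chr18:61105572-61132149 on the plus strand, Trem2 (ENSMUSG00000023992) at chr17:48346401-48354147 on the plus strand and Tyrobp (ENSMUSG00000030579) at chr7:30413788-30417577 on the plus strand. C1qb (ENSMUSG00000036905), C1qc (ENSMUSG00000036896) and C1qa (ENSMUSG00000036887) follow each other on the minus strand in an 18.7 kb stretch, chr4:136880129-136898803. Ctss (ENSMUSG00000038642) lies at chr3:95526786-95556403 on the plus strand, P2ry12 (ENSMUSG00000036353) at chr3:59216271-59262831 on the minus strand inside Med12l of the opposite strand, and Cx3cr1 (ENSMUSG00000052336) at chr9:119901616-120068283 on the minus strand. The deposited gene length equals the whole span from start to end for all 37332 genes. The strand setting used in counting is not given in the sources used here.

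Depth, as total counts, was 13496984 to 20808290 for the mESC libraries, 10622897 to 23608781 for mNPC and 15607890 to 24537526 for mCtx. The mESC libraries numbered 1 stood apart from the others of their groups: the chi-square per gene between libraries 1 and 2 or 3 was 36.8 and 63.0 in chromatin against 19.7 between 2 and 3, and 45.3 and 61.5 against 12.9 in cytoplasm. The comparisons with mESC were therefore also fitted without those numbered 1. Levels below are read counts scaled to library size (CPM), on sizes scaled by the trimmed mean of M values, and a gene is called when edgeR's quasi-likelihood test gave an adjusted p under 0.05 and an absolute log2 fold change of at least 1. Of the 9 genes 8 passed the filter on low counts. Apart from Cx3cr1 they had at most 19 reads in any mESC or mNPC library and passed on their mCtx reads, so how many were called against the lines is a description. P2ry12 did not pass and was not tested.

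On the TPM scale, which allows levels of different genes to be compared, the mean in mCtx cytoplasm was highest for Tyrobp at 24.3 ± 2.23 TPM (SD, n = 3), with libraries at 23.3, 22.7 and 26.8. C1qc at 7.29 ± 1.22, C1qb at 7.09 ± 2.42, Trem2 at 6.87 ± 1.08 and C1qa at 6.37 ± 1.12 TPM followed, and the libraries of each overlapped those of the next in that order. Ctss was next at 2.87 ± 0.365 TPM, below all libraries of C1qa. Cx3cr1 at 0.913 ± 0.0874 TPM, Csf1r at 0.453 ± 0.241 TPM and P2ry12 at 0.0633 ± 0.0493 TPM closed the order, each without overlap with the gene above it. In mCtx chromatin the order was different: Trem2 led with 2.71 ± 1.23 TPM, and every neighbouring pair from Trem2 down to Csf1r overlapped. In chromatin of the cell lines, with 0 counted reads, Trem2 was still listed at 1.39 to 1.98 TPM (mESC) and 0.86 to 1.09 TPM (mNPC). Over all 9 genes the summed level was 10.7 ± 3.56 TPM in mCtx chromatin, 15.1 ± 2.79 in nucleoplasm and 56.2 ± 7.21 in cytoplasm. In bulk RNA, fewer cells of a type and less RNA per cell cannot be told apart.

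**Figure D1:**
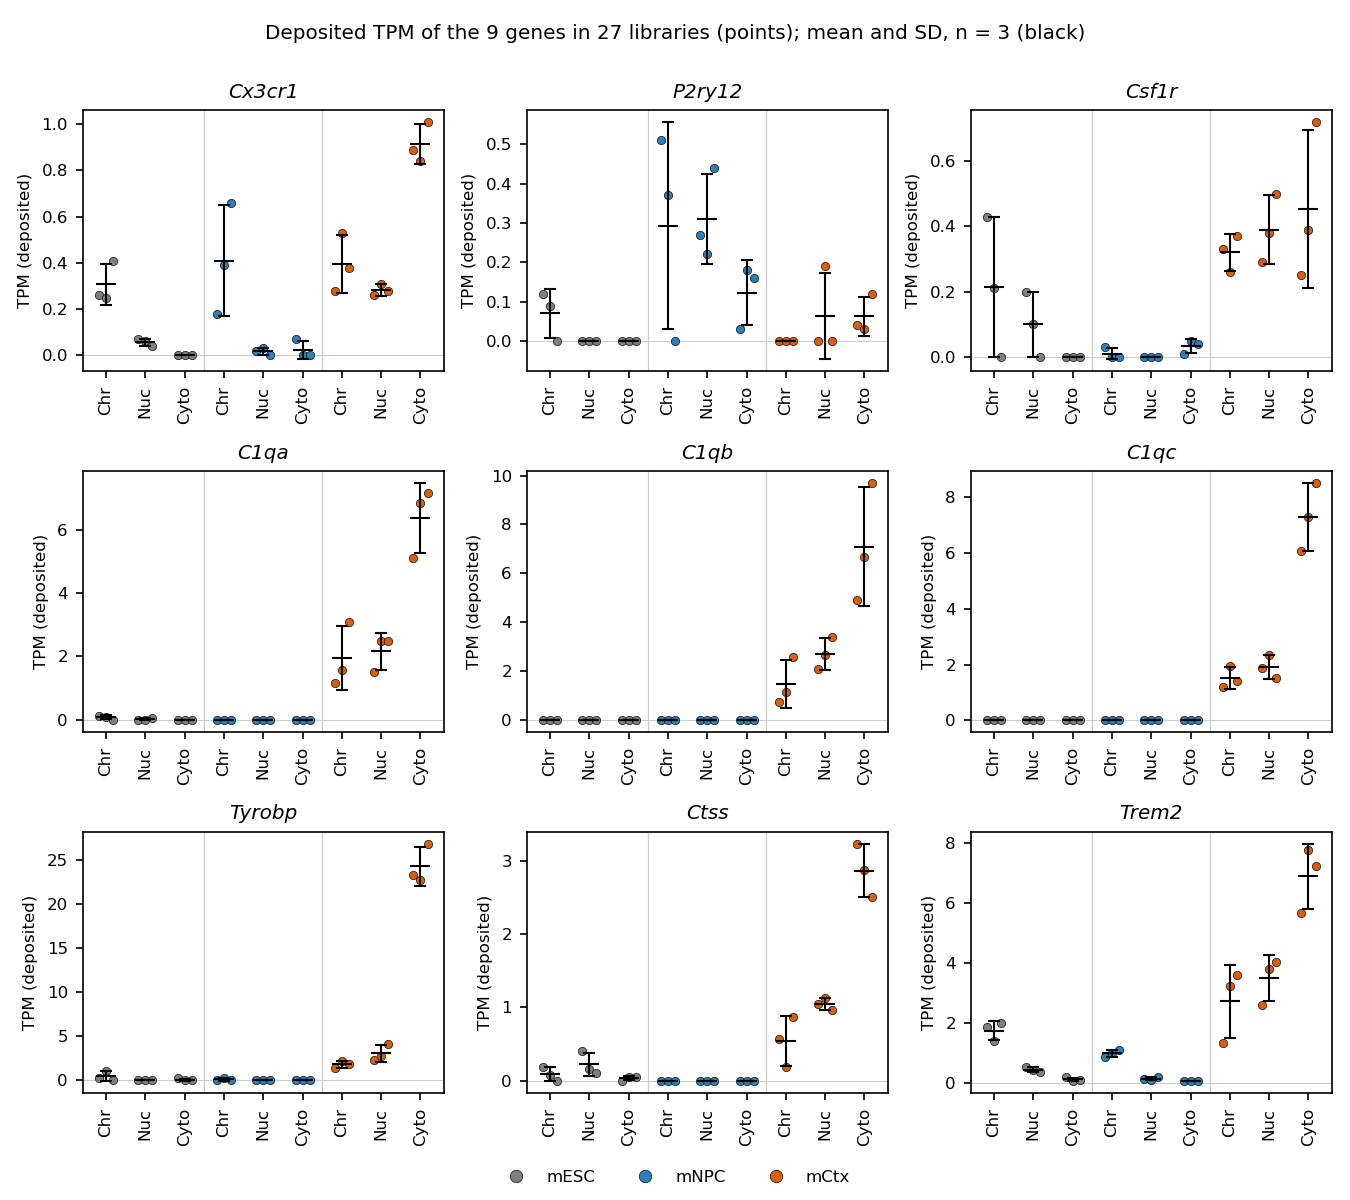
Deposited TPM (linear axes, each with its own range) of each gene in chromatin (Chr), nucleoplasm (Nuc) and cytoplasm (Cyto) of mESC, mNPC and mCtx; points are libraries, black bars the mean and SD (n = 3). The C1q chains, Tyrobp, Ctss and Trem2 are highest in mCtx cytoplasm, where Tyrobp reaches 26.8 TPM, whereas P2ry12 is at most 0.51 TPM in any library.

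Tyrobp, the adaptor, had the largest fold between fractions of the neuron culture. Its level was 0.307, 0.357 and 0.288 CPM in the chromatin libraries 1, 2 and 3, 0.663, 0.781 and 1.68 CPM in nucleoplasm, and 8.05, 8.70 and 9.30 CPM in cytoplasm. No chromatin library reached the lowest nucleoplasm library and no nucleoplasm library reached the lowest cytoplasm library. Chromatin was lower than cytoplasm by a log2 fold change of -4.75 ± 0.43 (SE; edgeR adjusted p = 1.1e-08) and nucleoplasm was lower than cytoplasm by -3.02 ± 0.38 (adjusted p = 2.9e-06). Behind these values stood 19 reads in chromatin, 54 in nucleoplasm and 495 in cytoplasm over 3 libraries each.

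For Trem2, the receptor that uses this adaptor, the fractions lay closer together. It was at 0.819, 1.79 and 1.82 CPM in mCtx chromatin, 1.86, 2.63 and 3.20 CPM in nucleoplasm, and 4.16, 5.13 and 5.52 CPM in cytoplasm. The 3 fractions did not overlap, although the highest chromatin library lay just under the lowest nucleoplasm library. Trem2 was lower in chromatin than in cytoplasm (log2 fold change -1.74 ± 0.38, edgeR adjusted p = 6.6e-04), while nucleoplasm against cytoplasm (-0.94 ± 0.37, adjusted p = 0.0473; called with library totals as scaling, -1.03, adjusted p = 0.0381) missed the minimum size and chromatin against nucleoplasm (-0.80 ± 0.39, adjusted p = 0.0924) missed the threshold. For Trem2 the TPM table also listed 1.39 to 1.98 TPM in mESC chromatin and 0.86 to 1.09 TPM in mNPC chromatin, where the count table had 0 reads.

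The C1q chains gave similar values. In CPM, C1qa stood at 0.461, 0.664 and 1.20 in mCtx chromatin, 1.13, 1.85 and 2.03 in nucleoplasm and 3.82, 5.28 and 5.24 in cytoplasm. C1qb stood at 0.307, 0.562 and 1.10 CPM in chromatin, 1.59, 1.99 and 2.80 in nucleoplasm and 3.48, 5.48 and 7.52 in cytoplasm. C1qc stood at 0.563, 0.970 and 0.672 CPM in chromatin, 1.66, 1.70 and 1.47 in nucleoplasm and 5.19, 6.49 and 7.20 in cytoplasm. For each chain every cytoplasm library was above every library of the other fractions, and only for C1qa did chromatin and nucleoplasm overlap. The chromatin to cytoplasm log2 fold changes were -2.61 ± 0.41 for C1qa (edgeR adjusted p = 1.3e-05), -3.05 ± 0.47 for C1qb (3.3e-05) and -3.09 ± 0.34 for C1qc (1.1e-06). In cytoplasm each chain held a similar share of the summed TPM of the chains: 28.3 to 32.9% for C1qa, 30.6 to 38.2% for C1qb and 33.5 to 37.8% for C1qc over the libraries. In chromatin, where 40 to 47 reads stood behind each chain, the shares spread wider, from 19.8 to 41.5% for C1qc.

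Ctss, the protease, was at 0.307, 0.153 and 0.432 CPM in mCtx chromatin, 1.06, 1.21 and 0.915 CPM in nucleoplasm and 3.41, 3.02 and 2.55 CPM in cytoplasm, with no overlap between fractions. It was lower in chromatin than in cytoplasm (log2 fold change -3.29 ± 0.48, edgeR adjusted p = 2.5e-06) and in nucleoplasm than in cytoplasm (-1.49 ± 0.43, adjusted p = 0.00613). In cytoplasm Ctss ran against the other members over the libraries, with library 1 highest and library 3 lowest.

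Csf1r, the receptor for CSF1 and IL-34, was the tested member with the fewest cytoplasmic reads. Its levels were 0.409, 0.408 and 0.480 CPM in mCtx chromatin, 0.795, 1.14 and 1.52 CPM in nucleoplasm and 0.751, 1.26 and 2.14 CPM in cytoplasm. Chromatin lay below the other fractions without overlap, while nucleoplasm and cytoplasm overlapped. The chromatin to cytoplasm log2 fold change was -1.69 ± 0.65 (edgeR adjusted p = 0.0254). That call ended with DESeq2 (adjusted p = 0.0951), with library totals as scaling (-1.41, adjusted p = 0.0727) and without any of chromatin libraries 1 to 3 (adjusted p of 0.0676, 0.0679 and 0.0547) or cytoplasm library 3 (-1.22, adjusted p = 0.156).

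P2ry12, the ADP receptor, had 2, 0 and 0 reads in the mCtx chromatin libraries, 0, 1 and 0 in nucleoplasm and 1 in each cytoplasm library. It had more reads in the progenitor line, with 4, 7 and 1 in chromatin, 8, 3 and 6 in nucleoplasm and 1, 6 and 2 in cytoplasm. In nucleoplasm the mCtx libraries were below every mNPC library, with a ratio of mCtx to mNPC of 0.0394 (95% counting interval 0.000943 to 0.252). In chromatin the ratio was 0.156 (0.0170 to 0.700) and in cytoplasm 0.324 (0.0564 to 1.30), and of the counting intervals only that of cytoplasm held a ratio of 1. The libraries overlapped in chromatin and in cytoplasm. Such intervals cover counting error only. The P2ry12 span lies within Med12l, whose reads on the other strand cannot be told apart from it if counting ignored strand. Med12l had 1128, 962 and 1211 counts in mCtx chromatin, where P2ry12 had 2, 0 and 0. The part of Med12l in the P2ry12 reads was not tested.

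Cx3cr1, the fractalkine receptor, had 202 to 1865 counts in every library, the stem cells and progenitors included. Its deposited span is 166668 bases, of which annotated Cx3cr1 exons cover 2.7%, and it contains Gorasp1, Csrnp1 and Xirp1 on the same strand. The counts of these genes add up to 188 to 1852 per library, 82.5 to 99.3% of the counts listed for Cx3cr1, so the count table does not isolate the receptor. In mCtx it was at 40.5, 45.2 and 43.9 CPM in chromatin, 40.0, 43.1 and 41.9 CPM in nucleoplasm and 46.8, 50.4 and 47.8 CPM in cytoplasm. The chromatin to cytoplasm log2 fold change was -0.16 ± 0.17 (edgeR adjusted p = 0.401). The TPM table listed Cx3cr1 at 0.89, 0.84 and 1.01 TPM in mCtx cytoplasm, at 0 in all mESC cytoplasm libraries and at 0.07, 0 and 0 TPM in mNPC cytoplasm. On that scale mCtx cytoplasm was above every other library of the series.

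**Figure D2:**
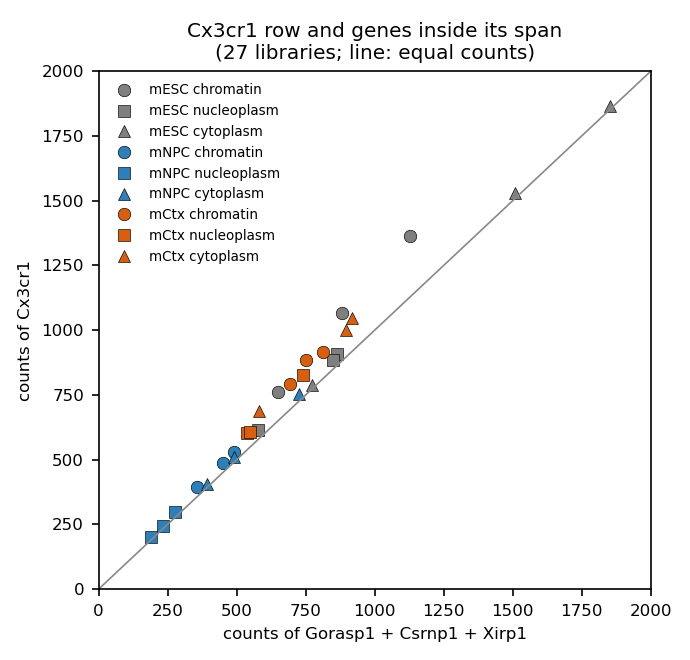
Counts listed for Cx3cr1 (vertical axis) against the summed counts of Gorasp1, Csrnp1 and Xirp1 (horizontal axis) in the 27 libraries; colour marks the cell type and shape the fraction, and the line marks equal counts. All points lie 10 to 235 counts above the line.

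Across the fractions of the culture, 7 of the 8 tested members were lower in chromatin than in cytoplasm and none was higher, where 24.4% of the 18226 genes tested were lower and 26.2% higher. The chromatin and cytoplasm libraries did not overlap for those 7 genes, nor for Cx3cr1, which was not called. The share of all genes without such overlap was not computed, so this separation is not read as particular to the members. Before adjustment, 12999 of the 18226 genes tested had an edgeR p under 0.05 in this contrast. The median log2 fold change of the 8 genes was -2.83, and that of all genes was 0. In nucleoplasm against cytoplasm 5 of 8 were lower (Tyrobp, the C1q chains and Ctss), where 9.57% of all genes were lower and 11.7% higher, with a median of -1.43. In chromatin against nucleoplasm the same 5 genes were lower, where 16.1% of all genes were lower and 17.4% higher, with a median of -1.27. They were Ctss (-1.79 ± 0.52, edgeR adjusted p = 0.00496), Tyrobp (-1.73 ± 0.46, 0.00378), C1qb (-1.68 ± 0.48, 0.00732), C1qc (-1.12 ± 0.35, 0.0142) and C1qa (-1.10 ± 0.42, 0.0318). With library totals as scaling C1qa (-0.75, adjusted p = 0.139) and C1qc (-0.77, adjusted p = 0.0759) were no longer called there. The C1qa call also ended with DESeq2 (adjusted p = 0.0683) and without chromatin library 1 (0.139) or 2 (0.0981) or nucleoplasm library 2 (0.0777) or 3 (0.115). The C1qc call also ended without chromatin library 1 (0.0631) or 3 (0.0514), and with limma on log2(TPM + 1) none of the 5 genes was called, C1qa being at -0.14. These 7 genes had more reads in cytoplasm than in either other mCtx fraction, and the filter passed them on those reads, so the counts describe them only.

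**Figure D3:**
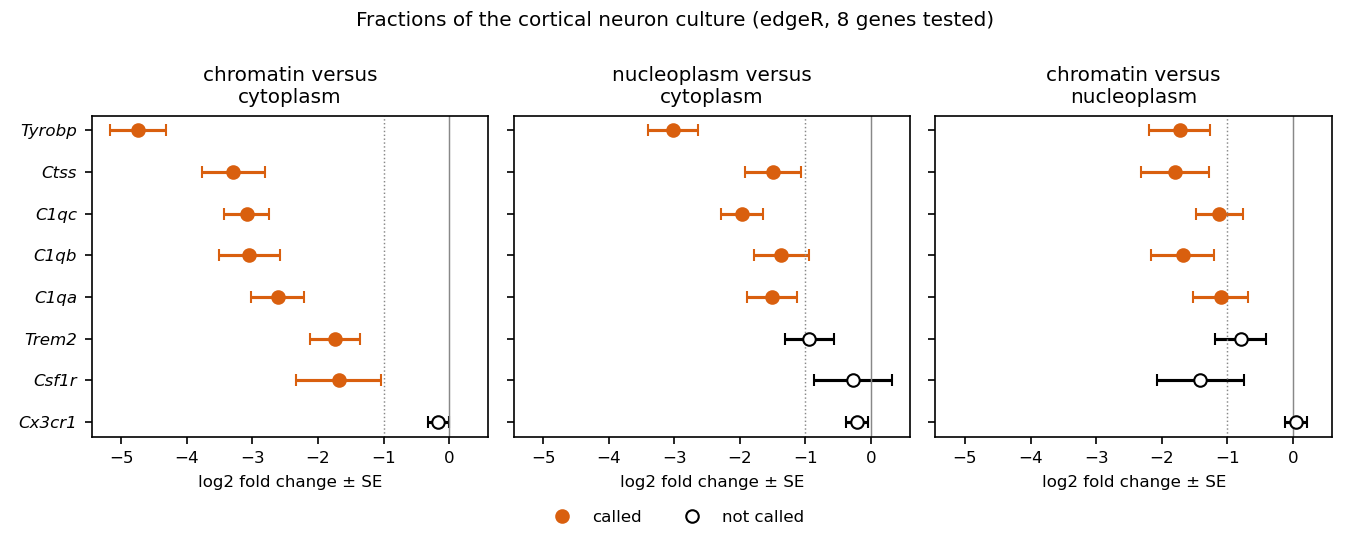
Log2 fold change with SE (edgeR, horizontal axis) of the 8 tested genes between fractions of the neuron culture; filled points were called, open points were not, and the dotted line marks a log2 fold change of -1. Tyrobp lies farthest from 0 in the chromatin to cytoplasm and nucleoplasm to cytoplasm panels (-4.75 and -3.02), and Cx3cr1 lies close to 0 in all panels.

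The size of the chromatin difference depended on the table. The log2 ratio of mean TPM between mCtx chromatin and cytoplasm was -3.73 for Tyrobp, -2.41 for Ctss, -2.27 for C1qc, -2.25 for C1qb, -1.72 for C1qa, -1.34 for Trem2 and -0.50 for Csf1r. Each was closer to 0 than the log2 fold change from counts. Between nucleoplasm and cytoplasm the log2 ratios of mean TPM were -2.98 for Tyrobp, -1.94 for C1qc, -1.56 for C1qa, -1.46 for Ctss and -1.39 for C1qb, within 0.1 of the values from counts. Cx3cr1 was the exception in both, at -1.20 and -1.69 in TPM. Over all genes the split of calls moved as well: limma on log2(TPM + 1) called 36.2% of genes higher and 8.31% lower in chromatin than in cytoplasm. With library totals as scaling, the median log2 fold change of all genes moved from 0 to 0.24 in chromatin against cytoplasm and from 0.04 to 0.39 in chromatin against nucleoplasm.

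Against the progenitor line in cytoplasm, 7 of 8 tested members were higher in mCtx and none was lower, where 24.4% of all genes were higher and 20% lower. C1qa, C1qb, C1qc, Tyrobp, Ctss and Trem2 had 0 reads in all 3 mNPC cytoplasm libraries, so their folds are lower bounds against 3 counts over the group. Tyrobp was at least 160-fold higher, C1qb at least 105-fold, Trem2 at least 91.9-fold, C1qa at least 89.3-fold and Ctss at least 53.7-fold. Csf1r had 1 read in mNPC cytoplasm, in library 3, and a ratio of 80.6 (counting interval 14.1 to 3221). The edgeR adjusted p was 5.6e-05 for Csf1r and ran from 4.4e-10 to 2.2e-07 for the others. In nucleoplasm 7 of 8 were also higher (24.6% of all genes were higher, 22.1% lower), with lower bounds from 11.4-fold for Ctss to 28.6-fold for Trem2, and in chromatin 7 of 8 (23.5% higher, 21.4% lower), with Trem2 at least 27.8-fold and Tyrobp at least 5.93-fold higher. On the TPM scale the chromatin differences of Trem2 (0.84 in log2(TPM + 1)) and Ctss (0.60) were under the minimum size. Cx3cr1, with the span described above, differed by 0.68, 0.88 and 0.77 on the log2 scale in cytoplasm, nucleoplasm and chromatin and missed the minimum size.

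Against the stem cells, the comparisons used the same mCtx libraries. In cytoplasm 7 of 8 tested members were higher in mCtx, where 35.7% of all genes were higher and 32.2% lower. C1qc was at least 104-fold, C1qb at least 93.0-fold and C1qa at least 79.0-fold higher. Tyrobp had 1 read in mESC cytoplasm (ratio 425, counting interval 75.9 to 16820) and Trem2 had 3 (81.3, 27.5 to 397). Csf1r had 1, 2 and 3 reads there and a log2 fold change of 3.44 ± 0.82 (edgeR adjusted p = 5.7e-04), and Ctss had 2, 1 and 1 reads and a log2 fold change of 5.05 ± 0.61 (adjusted p = 8.3e-08). Cx3cr1 was lower in mCtx cytoplasm in counts (-0.80 ± 0.17, adjusted p = 9.8e-05, no overlap), under the minimum size. Without the mESC libraries numbered 1 it was called lower (-1.01, adjusted p = 1.9e-09), and the other 7 were called higher as before. The count row does not isolate Cx3cr1. Csrnp1, inside its span, had 382, 1200 and 985 counts in mESC cytoplasm against 39, 74 and 77 in mCtx cytoplasm. In TPM Cx3cr1 went the other way, at 0 in mESC cytoplasm and 0.84 to 1.01 in mCtx cytoplasm. In nucleoplasm 7 of 8 were higher, with or without those libraries (28.9% of all genes were higher, 34.1% lower), among them Csf1r by 1.98 ± 0.71 (adjusted p = 0.0148) and Ctss by 1.52 ± 0.51 (adjusted p = 0.00933). The Csf1r call there ended without mESC nucleoplasm library 3 (1.42, adjusted p = 0.0605) or mCtx nucleoplasm library 3 (1.71, adjusted p = 0.0684), and the Ctss call without mESC nucleoplasm library 2 (1.17, adjusted p = 0.0578).

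In chromatin 5 of 8 were higher in mCtx than in mESC, also without the mESC libraries numbered 1, where 29.3% of all genes were higher and 32.3% lower. Trem2 was at least 33.4-fold, C1qc at least 16.5-fold and C1qb at least 15.0-fold higher in counts, and C1qa had 1, 1 and 0 mESC reads (ratio 26.4, counting interval 6.92 to 225). For Trem2 the tables differed: limma on log2(TPM + 1) gave a difference of 0.38 (adjusted p = 0.0697), which was not called. Csf1r had 19, 12 and 1 reads in the mESC chromatin libraries against 8, 8 and 10 in mCtx. The groups overlapped, and the log2 fold change was -0.15 ± 0.71 (edgeR adjusted p = 0.855). Without the mESC libraries numbered 1 it was 0.57 and still not called. Tyrobp had 1, 5 and 3 reads in mESC chromatin and 6, 7 and 6 in mCtx chromatin, with a log2 fold change of 1.22 ± 0.60 (adjusted p = 0.0702). It was called without mESC chromatin library 2 (1.70, adjusted p = 0.0437) and with limma on log2(TPM + 1) (1.02, adjusted p = 9.0e-05) or log2(TPM + 0.1) (2.42, adjusted p = 0.00194). Ctss was higher by 1.91 ± 0.72 (adjusted p = 0.0191), a call that ended without mESC chromatin library 3 (1.38, adjusted p = 0.0828) or mCtx chromatin library 3 (1.55, adjusted p = 0.0936).

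The difference between mCtx and mESC was also compared between chromatin and cytoplasm. This contrast of contrasts was chosen after values were seen, on genes that had passed the filter by their mCtx reads, so its p-values describe these values only. It called 4 of the 8 tested members lower, and 24.9% of all genes lower and 15.7% higher. C1qb and C1qc had 0 reads in both mESC chromatin and mESC cytoplasm, so the contrast could not be estimated for them. Tyrobp gave -7.07 ± 1.09 on the log2 scale (edgeR adjusted p = 2.1e-05), Csf1r -3.59 ± 1.11 (0.0091) and Ctss -3.14 ± 1.15 (0.0258). C1qa was also called (adjusted p = 0.0347), with 0 reads in mESC cytoplasm, so the size of its fitted value is no bound. Without the mESC libraries numbered 1, Tyrobp (adjusted p = 1.05e-05) and Csf1r (-2.67, adjusted p = 0.0494) were still called, and Ctss (-2.97, adjusted p = 0.110) and C1qa (adjusted p = 0.155) were not. With the replicate number within each cell type as a block, all 4 were still called (adjusted p from 1.4e-05 to 0.0388).

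The label of these genes was checked against other microglia markers. Tmem119, a microglia membrane protein, was at 0.14, 0.20 and 0.27 CPM in mCtx cytoplasm, and Siglech, a microglia lectin, had 0 reads in every mCtx library. Gpr34 was at 0.55, 0.45 and 0.46 CPM and P2ry13 at 0.27, 0.05 and 0.09 CPM there, both receptors of microglia, and Olfml3, a secreted protein of microglia, was at 1.57, 1.36 and 1.73 CPM. Fcrls, also a microglia marker, was at 2.12, 4.08 and 4.47 CPM and Adgre1, which encodes F4/80, at 1.30, 2.21 and 2.37 CPM in cytoplasm. Markers known to set microglia apart from other macrophages thus did not go one way. In mCtx cytoplasm Siglech had 0 reads, P2ry12 had 1 read per library, and Tmem119 and P2ry13 were at most at 0.27 CPM. Gpr34 was also low, at 0.45 to 0.55 CPM, while Olfml3 and Fcrls were at 1.36 CPM or more in each library. Fcrls had 0 reads in all mESC and mNPC libraries, whereas Tmem119 was at 0.833 to 0.962 CPM in mESC nucleoplasm and Olfml3 at 1.94 to 2.75 CPM in mNPC cytoplasm.

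In a list of 50 other microglia and myeloid genes, 39 were tested between mCtx chromatin and cytoplasm, and 16 were lower and 5 higher, with a median log2 fold change of -0.92 (over all genes 24.4% were lower and 26.2% higher). Lower were Fcgr3, an immunoglobulin receptor (-3.62 ± 0.44, edgeR adjusted p = 1.3e-07), Lyz2, lysozyme (-3.53 ± 0.38, 2.6e-08), Laptm5 (-3.52 ± 0.38, 7.0e-09) and Spp1, osteopontin (-3.23 ± 0.23, 2.0e-12). Lyz2 was at 0.82, 0.92 and 1.97 CPM in chromatin and at 11.9, 15.8 and 15.6 CPM in cytoplasm. The most abundant genes of the list were Apoe (-0.86, adjusted p = 0.0750), Csf2ra (higher in chromatin by 2.68, adjusted p = 1.9e-10) and Sall1 (-0.45, not called). Against mNPC in cytoplasm 23 of the 39 were higher and 5 lower (medians of 2.43 and, with genes at 0 in mNPC at their bound, 2.15), and against mESC 16 were higher and 13 lower. Over all genes these shares were 24.4% and 20% against mNPC and 35.7% and 32.2% against mESC.

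Markers of other blood-derived and brain cells gave these values in mCtx cytoplasm. The 12 markers of blood monocytes and neutrophils summed to 0.0456 to 0.151 CPM per library, with 8 at 0 reads and Ccr2 at 0, 0.05 and 0 CPM. The 12 border macrophage markers summed to 1.91 to 3.24 CPM, with Stab1 at 0.887, 1.66 and 2.01 CPM, with Cbr2, Ccl24 and Cd209f at 0 and Mrc1 at 0.48, 0.20 and 0.27 CPM. The 10 lymphocyte markers summed to 0.182 to 0.453 CPM, 11 endothelial markers to 6.69 to 8.43 CPM and 11 markers of mural cells and fibroblasts to 28.7 to 36.0 CPM. The 11 astrocyte markers summed to 660 to 683 CPM and the 16 cortical neuron markers to 12090 to 13170 CPM. The members without Cx3cr1 summed to 28.9, 35.4 and 39.5 CPM in the same libraries. Of the 16 neuron markers 9 were lower in chromatin than in cytoplasm and none was higher, with a median of -1.24 (24.4% of all genes were lower). The part of other cell types in the members' levels was not tested.

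**Figure D4:**
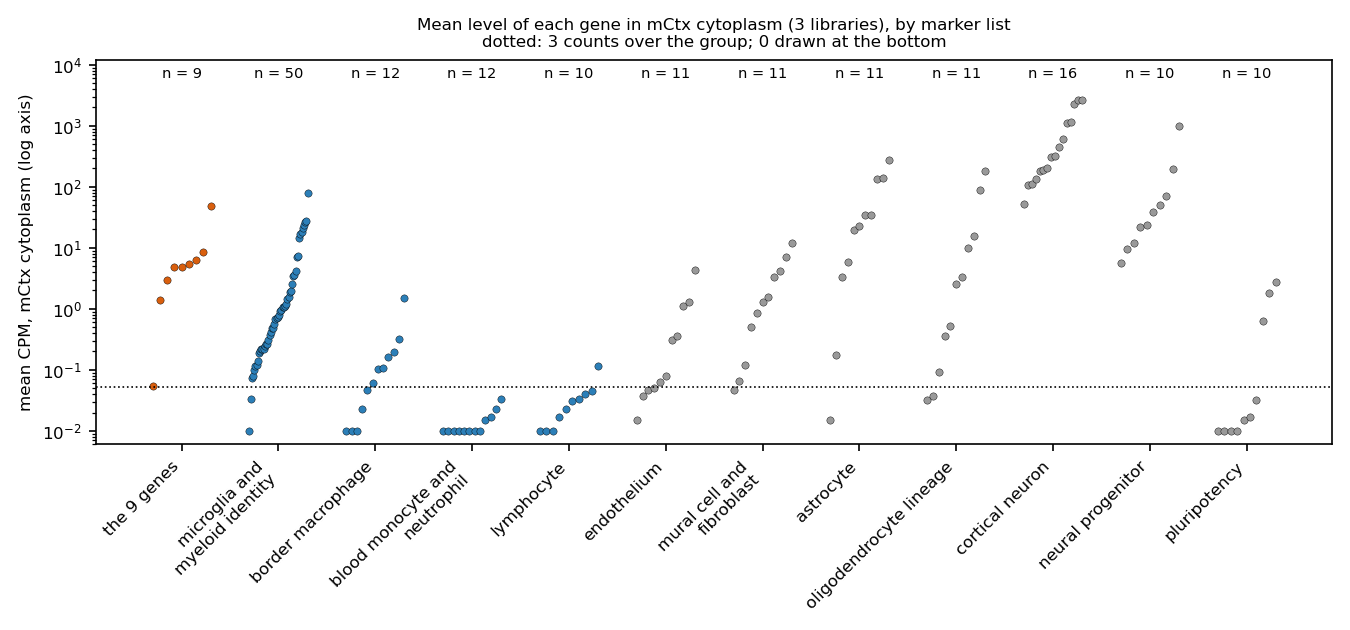
Mean CPM of each gene in mCtx cytoplasm (log axis, 3 libraries) by marker list; each point is a gene, the dotted line marks 3 counts over the group, and genes at 0 are drawn at the bottom. Among the 9 genes P2ry12 lies at the dotted line, and all 12 blood monocyte and neutrophil markers lie below that line. Cx3cr1 lies highest, but its counts are mostly matched by other genes inside its span. In TPM it is 7th of the 9 genes, at 0.913.

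Ligands of these receptors were read in the culture too. Cx3cl1, the fractalkine that CX3CR1 binds, was at 20.6, 24.9 and 24.7 CPM in mCtx chromatin, between 81.7 and 89.96 CPM in nucleoplasm and 67.3, 74.9 and 77.2 CPM in cytoplasm. In mNPC cytoplasm it was at 20.5, 17.7 and 20.8 CPM and in mESC cytoplasm at 0.96, 0.56 and 0.64 CPM, with no overlap between cell types. Of the CSF1R ligands, Csf1 was at 8.39, 11.2 and 8.98 CPM and Il34 at 0.75, 1.06 and 0.91 CPM in mCtx cytoplasm, and Csf1 was at 20.6, 15.4 and 17.5 CPM in mNPC cytoplasm, above every mCtx library. Of 17 tested genes in the list of these ligands and partners, 8 were lower and none higher in mCtx chromatin than in cytoplasm (median -0.78; 24.4% and 26.2% of all genes), among them Cd200 (-2.28), Grb2 (-2.24), Gnai2 (-2.12) and Tgfbr2 (-1.80).

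Of 14 tested genes of TYROBP and TREM2 signalling, 4 were higher and 1 lower in mCtx chromatin than in cytoplasm (median -0.11), where 26.2% of all genes were higher and 24.4% lower. The 4 were Lat2 (4.16), Zap70 (2.76), Plcg2 (2.34) and the kinase Syk (1.23). Pik3r1, a subunit of PI3 kinase, was the lower one (-1.21). Of 25 tested complement genes beyond C1q, 13 were higher and 4 lower in chromatin, with a median of 1.80, or 1.39 with genes without cytoplasmic reads at their bound, against the same 26.2% and 24.4% of all genes. The higher ones included C4a (4.76), the protease Masp2 (4.68), Cd46 (4.48) and Csmd1 (2.99). Of 14 tested cathepsins and cathepsin inhibitors, 7 were lower and 2 higher (24.4% and 26.2% of all genes), among them Ctsb (-1.62), Ctsd (-1.32), Ctsh (-2.90), the inhibitors Cst3 (-2.43) and Cstb (-2.76), and Ctsk (3.30). All these values are log2 fold changes of called genes.

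Leaving out Cx3cr1 and P2ry12, mCtx library 3 held the highest CPM for 5 of 7 members in each fraction, and library 1 the lowest for 4 in chromatin, 5 in nucleoplasm and 6 in cytoplasm. Library 3 was also the lowest for 2 of 7 in nucleoplasm, and library 2 the highest for 2 and the lowest for 2 in chromatin. The summed level of the members without Cx3cr1 was 3.28, 4.90 and 6.003 CPM in chromatin libraries 1, 2 and 3, and 8.75, 11.4 and 13.6 CPM in nucleoplasm. Between the highest and the lowest cytoplasm library the fold was 1.16 for Tyrobp, 1.34 for Ctss, 1.33 for Trem2, 1.38 for C1qa, 1.39 for C1qc, 2.16 for C1qb and 2.85 for Csf1r.

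The genes whose level followed the mean of the members most closely over the 27 libraries were Nrsn1 (Pearson r = 0.982), Pnoc (0.978), Vsnl1 (0.972), Adgre1 (0.972), Mmp12 (0.969), Sec14l3 (0.968), Gm12408 (0.967), Gpr25 (0.966), Fcrls (0.966) and 2810032G03Rik (0.965). These libraries share cell types and fractions, and the correlation describes that pattern. Over the 9 mCtx libraries with the mean of each group removed, Cars (0.990), Lor (0.989), Myo1f (0.983), Frmd4b (0.982) and Dusp1 (0.973) were closest. These are the highest of all tested genes over only 9 values, so high r was selected for. In both searches the mean of the members included the Cx3cr1 row, which does not isolate the receptor. Nrsn1, Pnoc and Vsnl1 are known from neurons, and Adgre1, Fcrls and Mmp12 from macrophages.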

How the data were processed

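Polyadenylated RNA of chromatin, nucleoplasm and cytoplasm was measured in 27 libraries of 9 groups of 3. The authors deposited whole-number gene counts, with gene position and length in the same table, and, in a second table, TPM values per gene. The tools listed, without their roles, in the submitters' processing notes are featureCounts, STAR and kallisto 0.43.0, with the build mm10. By the definition of that unit, the deposited TPM values had been scaled by the authors to transcript length and depth; how they were combined per gene is not stated. Their options, annotation release and strand setting were not given in the sources used here. Every column of the deposited tables was assigned to a library by its name, and 0 per-sample columns went unused. Ensembl identifiers were matched to GENCODE M21 symbols (35449 of 37332 genes in the count table, 53274 of 53379 in the TPM table).

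The counts of 27 libraries were fitted together in edgeR 4.0.16 (R 4.3.3) with TMM scaling and its expression filter on the 9 groups, and quasi-likelihood tests were adjusted by Benjamini-Hochberg over the 18226 genes tested. Genes were called at an adjusted p under 0.05 and an absolute log2 fold change of at least 1. The SE is the log2 fold change divided by the square root of F. Folds against a group without reads are lower bounds against 3 counts over the group, and 95% ratio intervals are exact and cover counting error only. Alternatives were DESeq2 1.42.0, limma 3.58.1 on log2(TPM + 1) or log2(TPM + 0.1), other scalings and filters, fits of only the libraries compared, a replicate block, no minimum fold change and leaving out each library. The mCtx minus mESC contrast between fractions the fits without mESC libraries numbered 1 and the block in that contrast were chosen after seeing the data. The calling was checked on simulated counts drawn from the mean levels over all libraries. At an adjusted p under 0.05, it recovered 63% of 100 genes changed 2-fold and 95% of 100 changed 4-fold. The changed genes were picked at random from those tested, so recovery at the low read counts of the members was not tested.

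Same-numbered mCtx fractions correlated by 0.027 to 0.137 (deviations from group means), against -0.143 to 0.037 for other numbers. All 9 mCtx libraries were closest to their own number. These correlations were low and no label pairs the fractions, so the main fit left them unpaired and the replicate block was an alternative. Same-numbered mESC fractions correlated by 0.31 to 0.716, so the contrast of mESC fractions was also fitted with number within cell type as a block. The 9 genes and the gene lists were chosen with earlier results of these data known. Named list genes are the 3 of highest mean CPM over mCtx and up to 4 called genes with the largest change between chromatin and cytoplasm, and genes given by library were added after their values were seen. Promoter sequences are from RefSeq (GRCm38.p6), matched by symbol for 6 of the 9 genes.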

Additional observations from a re-analysis of the deposited data

Results flagged for a closer look

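The difference between mCtx and mESC was compared between chromatin and cytoplasm, and 4 genes passed the threshold for a difference (edgeR quasi-likelihood test, Benjamini-Hochberg adjusted over 18226 genes). The contrast was chosen after values were seen, and the genes had passed the filter on their mCtx reads, so the values describe these libraries only. Tyrobp gave -7.07 (chromatin minus cytoplasm, log2 scale), with 1, 5 and 3 reads in mESC chromatin against 1, 0 and 0 in mESC cytoplasm. Csf1r gave -3.59, with 19, 12 and 1 reads in mESC chromatin against 1, 2 and 3 in mESC cytoplasm. Ctss gave -3.14. C1qa gave a fitted -4.99, which is no bound because it had 0 reads in mESC cytoplasm. Without the mESC libraries numbered 1, Ctss (-2.97, adjusted p = 0.110) and C1qa (adjusted p = 0.155) missed the threshold, and Tyrobp, then with 0 reads in mESC cytoplasm, and Csf1r (-2.67, adjusted p = 0.0494) passed it.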

How the results depend on the processing

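Of 1129 log2 fold changes of the members recomputed under an alternative, 1051 kept direction and side of the threshold, 56 missed the threshold, 9 newly passed it and 13 changed sign; the cause was not tested. Cx3cr1 changed sign with library totals in chromatin against cytoplasm (0.10), with log2(TPM + 1) and no filter against mNPC chromatin (-0.0036), mESC cytoplasm (0.94, adjusted p = 6.9e-09, from -0.80 in counts), mESC nucleoplasm (0.28) and mESC chromatin (0.094), and with no filter against mESC nucleoplasm (0.034). Leaving out each library gave -0.22 to 0.026 for Cx3cr1 against mESC nucleoplasm, above 0 without mESC nucleoplasm library 2 (0.015) or 3, and -0.26 to 0.025 against mESC chromatin, above 0 without mESC chromatin library 2. For Csf1r the same gave -0.56 to 0.19 in nucleoplasm against cytoplasm, above 0 without mCtx cytoplasm library 3, and -0.67 to 0.65 against mESC chromatin, above 0 without mESC chromatin library 1; there it was 0.14 with unfiltered TPM and 0.57 without all mESC libraries numbered 1.

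In chromatin against nucleoplasm the members called went from 5 to 3 with library totals, 0 with log2(TPM + 1), filtered or not, and 1 with log2(TPM + 0.1). Against mNPC chromatin they went from 7 to 2 with only the libraries compared and to 4 with log2(TPM + 1), filtered or not, and against mESC chromatin from 5 to 2 with only the libraries compared. In fits of only the libraries compared, the filter on low counts was rerun on those libraries. A member dropped by it was not tested and is counted as not called, so the fall to 2 is no measure of lost differences. All genes called in nucleoplasm against cytoplasm numbered 3878, or 8523 with no minimum fold change, and in chromatin against nucleoplasm 6095, or 10526 with no minimum and 11442 with log2(TPM + 0.1). Leaving out each library gave 6 to 7 members called for chromatin against cytoplasm (9039 to 9190 genes), 4 to 5 for nucleoplasm against cytoplasm (3542 to 3895) and 3 to 5 for chromatin against nucleoplasm (5704 to 5986), the 3 without mCtx chromatin library 1 or nucleoplasm library 3. Against mNPC it gave 7 to 7 in each fraction (7889 to 8087 genes in cytoplasm, 8179 to 8454 in nucleoplasm, 8042 to 8180 in chromatin), and against mESC 7 to 8 in cytoplasm (12259 to 12450; the eighth is Cx3cr1, lower, without mESC cytoplasm library 1), 6 to 7 in nucleoplasm (11410 to 11603) and 4 to 6 in chromatin (11203 to 11327). C1qb in nucleoplasm against cytoplasm lost its call without mCtx cytoplasm library 3 (-1.07, adjusted p = 0.0888) or nucleoplasm library 1 (-1.23, adjusted p = 0.0626), and Tyrobp in chromatin against nucleoplasm without nucleoplasm library 3 (-1.20, adjusted p = 0.0553).

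With the replicate number as a block, 7, 5 and 6 members were called in chromatin against cytoplasm, nucleoplasm against cytoplasm and chromatin against nucleoplasm (9377, 4073 and 6280 genes), the sixth being Csf1r (-1.39, adjusted p = 0.00682), and no other count of members changed. All 9 mCtx libraries correlated best with their own number, a hint from the data and not the design. P2ry12, with 6 reads over the 9 mCtx libraries, and the chromatin reads of each member limit what these depths can show.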

Other observations

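Other genes known from macrophages were read in the cortical neuron culture, some of them also in the cell lines. C3ar1, the receptor for complement fragment C3a, was at 0.563, 0.255 and 0.432 CPM in mCtx chromatin libraries 1, 2 and 3 and at 3.68, 5.03 and 5.29 CPM in cytoplasm, and was at 0 in all mESC and mNPC libraries but mESC nucleoplasm library 1 (0.0545 CPM). Spi1, which encodes the myeloid factor PU.1, was at 0.546, 0.755 and 1.46 CPM in mCtx cytoplasm, above every mCtx library of the other fractions. It was at 2.28, 1.02 and 0.524 CPM in mESC cytoplasm, which overlaps the neuron culture.

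Csf2ra, a subunit of the GM-CSF receptor, was at 109, 129 and 109 CPM in mCtx chromatin and at 15.0, 18.9 and 20.01 CPM in cytoplasm. The cell lines also had more of it in chromatin, with 29.2 to 39.5 CPM in mESC and 34.8 to 42.8 CPM in mNPC, than in cytoplasm, with 3.56 to 5.45 and 6.48 to 8.39 CPM. Cd68, a lysosomal glycoprotein of macrophages, was at 14.3, 17.2 and 17.1 CPM in mCtx chromatin and at 5.60, 7.15 and 8.43 CPM in cytoplasm, while mESC chromatin was at 13.5 to 15.0 CPM and mNPC chromatin at 7.35 to 10.99 CPM. These genes were chosen after their values were seen.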
